A study of Arabidopsis thaliana with 4 samples.

Results

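Expression in Arabidopsis thaliana was compared between 2 groups of plants that carry the same silencing construct, labelled RNAi group 2 and RNAi group 3. Both were transformed with an inverted repeat made from the myosin XI-K open reading frame, which triggers RNA interference (RNAi), and each was measured on 1 array. These are 2 of the 4 columns of the series, and they were chosen by their labels. The labels name 3 independent groups of silenced plants and a control group that constitutively expresses the GUS reporter as a transgene. In all 22810 rows the GUS column equals the column of RNAi group 1, and the labels do not tell which plants that array measured. They are used here as 1 reference array, and no difference is assigned to silencing. Total RNA came from rosette leaves, cauline leaves and flowers mixed in equal proportions. The labels give no age, ecotype, promoter or transformant number for any group. The named probe sets include none for myosin XI-K, so the silencing was not checked on these arrays. No group has replicate arrays, so the spread between plants is unknown, no test was possible, and each difference describes these arrays only.

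Class XI myosins are motors that carry organelles and vesicles along actin filaments, and XI-K is among the main drivers of cytoplasmic streaming in leaf and root hair cells. Plants that lack several class XI myosins have smaller cells and organs. Signals are MAS5 intensities on a linear scale. They are given below in the order RNAi group 2, RNAi group 3, reference array. Signals under 32 were set to 32 for each log2 difference (RNAi group 2 minus RNAi group 3), and a fold that rests on such a signal is a lower bound. A signed value in parentheses after a gene or its signals is this log2 difference, above 0 where RNAi group 2 was higher.

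Of 22746 probe sets, 17870 had a signal of 32 or more in RNAi group 2, in RNAi group 3 or in both. The median log2 difference over them was 0.02, with quartiles of -0.42 and 0.47. At 2-fold or more, 1660 probe sets were higher in RNAi group 2, which is 9.29%, and 1189 were higher in RNAi group 3, which is 6.65%. These counts were 1453 and 1409 after median centring and 1517 and 1369 after quantile normalisation, so most of the excess in RNAi group 2 depends on the scaling. At 4-fold or more the counts were 282 and 93, and at 8-fold or more 62 and 5, with the values as deposited. Of 9850 named genes, each read from its brightest probe set, 811 were higher in RNAi group 2 (8.23%) and 642 were higher in RNAi group 3 (6.52%). These shares are the background for every count of genes below. Values just inside and just outside the 2-fold limit were 1.00 and 0.9997 on the log2 scale, so the limit cuts through a continuous range.

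**Figure D1:**
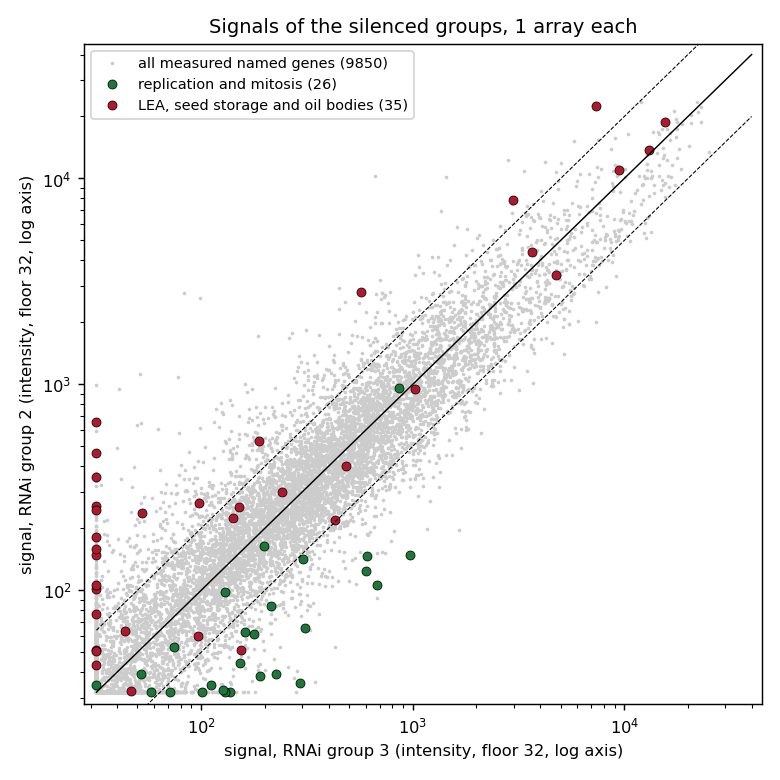
Signal of each measured named gene in RNAi group 3 (x axis) and RNAi group 2 (y axis), as intensities with a floor of 32 on log axes; the solid line marks equal signals and the dashed lines 2-fold. Genes of DNA replication and mitosis (green) lie mostly under the line, and late embryogenesis abundant (LEA), seed storage and oil body genes (red) mostly above it, several of them at the floor in RNAi group 3.

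Differences of 2-fold or more occurred at every signal level, as shown by the bars of shares against signal. The share was 24.4% of probe sets with a mean signal between 64 and 128, and 10.8% of those at 4096 or more. Among the brightest probe sets the order was turned: 7.18% were higher in RNAi group 3 and 3.66% in RNAi group 2, and the median difference was -0.22. Of the 1660 probe sets higher in RNAi group 2, 15% were under 32 in RNAi group 3. Of the 1189 higher in RNAi group 3, 10.9% were under 32 in RNAi group 2. Among the 15 genes past 2-fold that have more than 1 probe set, 14 had a second probe set with the same sign, and 9 of these second probe sets also passed 2-fold. These 15 were picked by their brightest probe set. Over all 106 genes with more than 1 measured probe set, the median gap between the brightest and the next was 0.38. Some of the 106 had opposite signs, such as AT4G02480 (0.75 and -1.14).

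**Figure D2:**
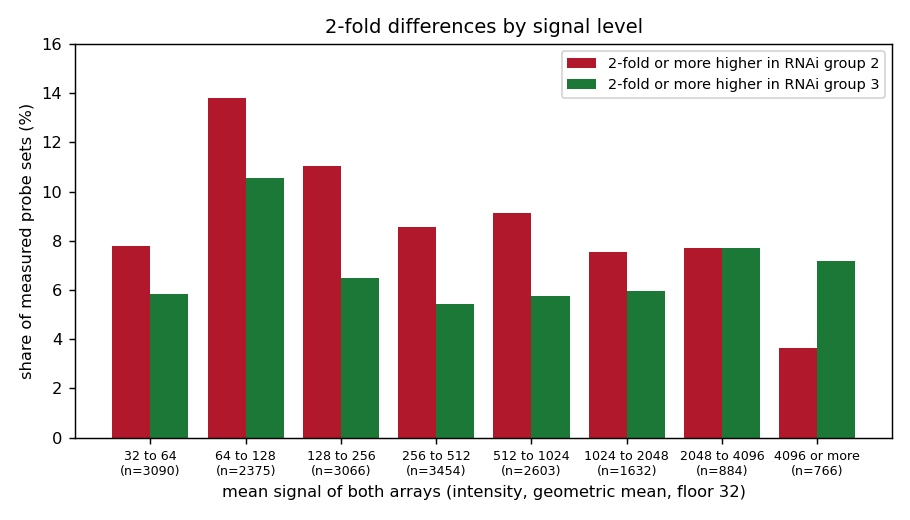
Share of measured probe sets (y axis, percent) that were 2-fold or more higher in RNAi group 2 (red) or in RNAi group 3 (green), by the geometric mean signal of both arrays (x axis). The red bar is the taller one up to a mean signal of 2048, and the green one at 4096 or more.

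The reference array was set beside both groups. Of the 1660 probe sets higher in RNAi group 2, the reference lay between the groups and nearer to RNAi group 3 for 681, between them and nearer to RNAi group 2 for 492, at or beyond RNAi group 3 for 376, and beyond RNAi group 2 for 111. Of the 1189 probe sets higher in RNAi group 3, it lay between the groups for 994, of which 570 were nearer to RNAi group 3. Among the 100 named genes with the largest differences in favour of RNAi group 2, the reference was nearer to, level with or beyond RNAi group 3 for 81. Of these 81, 17 were level with RNAi group 3 after the floor was set. Among the 100 with the largest in favour of RNAi group 3, 48 had the reference between the groups but nearer to RNAi group 3 and 46 nearer to RNAi group 2.

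Markers of the organs in the mixture differed between the arrays. The mature pollen list names 16 loci. Of 9 genes with a named probe set, 2 were under 32 in both groups. The 7 measured genes summed to 2546 in RNAi group 2, 1059 in RNAi group 3 and 75.5 on the reference array. All 7 were higher in RNAi group 2, with 4 of them past 2-fold and a median difference of 1.26. Of the 7, 1 was under 32 in RNAi group 3. The median was 1.27 with both signals at 32 or more and 0.53 with no filter. The polygalacturonase AT3G07820 read 709.5, 296 and 3.0 and thus had signal in both silenced groups but none above the floor on the reference array. The 2 tapetum genes went the other way in sum, with 767, 1253 and 1173. The list of nuclear photosynthesis genes, which mark leaf tissue, names 60 loci. Of the 12 measured, 11 had lower signals in RNAi group 2, with a median difference of -0.30. The root marker PYK10 was 41.9, 45.7 and 22.1, and no floral organ identity gene has a named probe set. Since RNA came from whole organs, fewer cells of a type and less RNA per cell cannot be told apart. The part of the organ mix in the differences below was not tested.

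The 3′ to 5′ signal ratios of control transcripts, which are higher where RNA is more degraded, were also unequal. With the first set of control probes, the actin ratio was 16.8, 13.3 and 5.38, the GAPDH ratio 0.913, 0.786 and 1.01, and the ubiquitin ratio 1.96, 1.48 and 1.74. That actin ratio was taken between probe sets of unlike type, so it cannot be read as degradation alone. With the second set, the actin ratio was 1.91, 1.58 and 1.71, the GAPDH ratio 0.787, 0.908 and 0.897, and the ubiquitin ratio 0.972, 0.822 and 0.982. RNAi groups 2 and 3 differed by less than 1.5-fold in each of these ratios. Their part in the differences between genes was not tested.

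Genes of the dividing cell were higher in RNAi group 3. Before a plant cell divides it loads helicases and polymerases onto its DNA, and at mitosis it builds a spindle with kinesins and Aurora kinases and then a new wall across its middle. The replication list names 33 loci and had 7 genes with a named probe set, and the mitosis and cytokinesis list 56 and 19. Of 26 measured genes of DNA replication, mitosis and cytokinesis, 19 were 2-fold or more higher in RNAi group 3. In RNAi group 2, 0 were 2-fold or more higher. The median difference was -1.67, beside 0.01 over all 9850 genes. The reference array lay between the groups for 19 of the 26, and for 994 of all 1189 probe sets 2-fold or more higher in RNAi group 3. Of the 19 higher in RNAi group 3, 4 were under 32 in RNAi group 2; among the 20 genes at 32 or more in both groups, 15 passed 2-fold and the median was -1.73.

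In DNA replication, 5 of 7 measured genes passed 2-fold and the median difference was -1.68. PRL (AT4G02060), the PROLIFERA subunit of the MCM helicase that opens the double strand, had signals of 124, 600.5 and 274, a difference of -2.27. POLA3 (AT5G41880), a subunit of the polymerase alpha-primase that starts new strands, read 65.6, 309 and 150.2 (-2.24). ICU2 (AT5G67100), the catalytic subunit of the same polymerase, read 34.6, 111 and 71.2 (-1.68). All 3 genes were lowest in RNAi group 2, with the reference at a middle level. POLD3 (AT1G78650), of polymerase delta, read 98.0, 129 and 84.5, less than 2-fold apart.

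Of 19 mitosis and cytokinesis genes, 14 passed 2-fold, all higher in RNAi group 3, and the median was -1.66. AUR2 (AT2G25880), an Aurora kinase of the spindle and cell plate, had the largest difference of the list, with signals of 35.5, 294 and 114, or 8.29-fold. Its relatives AUR3 (AT2G45490; 44.4, 153 and 76.3, -1.78) and AUR1 (AT4G32830; 141, 303 and 185, -1.10) were also higher in RNAi group 3. All 3 Aurora kinases of the plant thus had the same order of arrays, with the reference between the silenced groups. That order is not particular to them, since 994 of all 1189 probe sets 2-fold or more higher in RNAi group 3 had it. TOPII (AT3G23890), the topoisomerase that untangles sister chromatids, read 106, 678 and 227 (-2.68). The mitotic chromosome protein 3xHMG-box2 (AT4G23800) read 148, 974 and 366 (-2.72).

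Motor proteins of the spindle and phragmoplast had the same sign, but not all passed 2-fold. The kinesin-5 gene AT3G45850 read 164, 198 and 165 (-0.27) and was nearly level. The kinesin-4 gene AT5G60930 read 39.3, 226 and 88.6 (-2.52), and the kinesin-5 gene AT2G36200 read 38.2, 191 and 112 (-2.32). KINESIN-12B (AT3G23670), which works at the phragmoplast where the new wall forms, read 28.6, 129.5 and 70.9 and was at least 4.05-fold higher in RNAi group 3. UBC20 (AT1G50490), an E2 enzyme that serves the anaphase-promoting complex, read 147, 609.8 and 323 (-2.05). Its close relative UBC19 (AT3G20060) read 956, 858 and 979.8, the only member of the list with a higher signal in RNAi group 2. The 8 core histones were divided, with 1 member past 2-fold in each direction and a median of -0.35: the centromeric histone HTR12 (AT1G01370) read 59.8, 129.6 and 86.5 (-1.12) and the H2B gene AT2G28720 read 304, 93.9 and 255 (1.69).

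**Figure D3:**
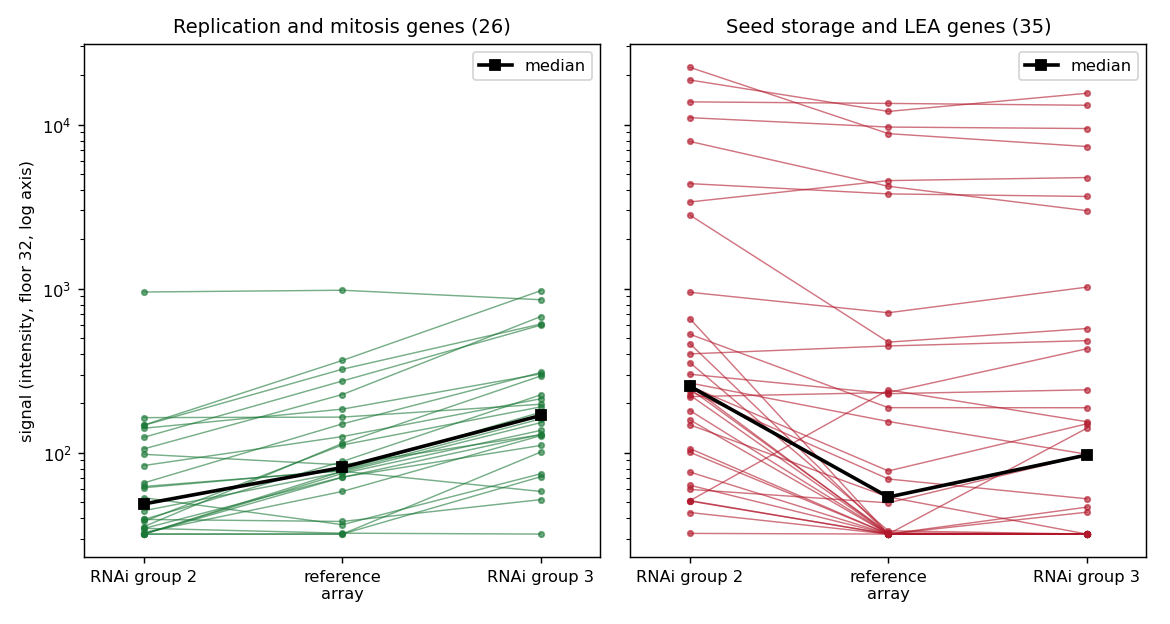
Signals (y axis, intensity with a floor of 32, log axis) of replication and mitosis genes (left) and of LEA and seed storage genes (right) on the 3 distinct arrays, 1 line a gene, with the median in black. On the left the median climbs from RNAi group 2 through the reference to RNAi group 3, while on the right it is highest in RNAi group 2 and many genes are at the floor on both other arrays.

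Some regulators of young organs followed the same order of arrays. SPCH (AT5G53210), the transcription factor that starts the stomatal lineage, read 34.9, 138 and 63.5, or 3.95-fold higher in RNAi group 3. STOMAGEN (AT4G12970), a secreted peptide that promotes stomata, read 362, 693 and 562 (-0.94). MUTE (AT3G06120), which acts after SPCH, read 14.3, 43.2 and 21.2 (-0.43), close to the floor. FMA (AT3G24140; FAMA), which acts last in the lineage, read 218, 144 and 186 (0.59), so only the early gene SPCH passed 2-fold and the late one had the opposite sign. ARR15 (AT1G74890), a response regulator induced by cytokinin, read 46.3, 220.3 and 98.9 (-2.25), while RR16 (AT2G40670) of the same class read 159, 173 and 159. The leaf polarity genes YAB3 (-0.31), PHV (-0.12) and YAB5 (0.35) and the ovule gene INO (0.71) stayed under 2-fold. IAA30 (AT3G62100), an Aux/IAA repressor, read 52.4, 155 and 99.8 (-1.56), whereas WES1 (AT4G27260), an enzyme that conjugates auxin to amino acids, read 1045, 319 and 484 (1.71). Over the 9 measured auxin genes the median was -0.20, which turned to 0.32 with a floor of 100.

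Cell wall and cytoskeleton genes split by member. Expansins loosen walls for growth, and of 14 measured members 3 were 2-fold higher in RNAi group 3 and 1 in RNAi group 2, with a median of -0.42. EXPA16 (AT3G55500) read 75.7, 258 and 247 (-1.77) and EXPA4 (AT2G39700) read 522, 1183 and 659.7 (-1.18). EXPA8 (AT2G40610) was the exception, at 774, 201 and 86.4 (1.94). Among 8 xyloglucan enzymes, which cut and rejoin the wall's tethers, XTH32 (AT2G36870) read 349, 1118 and 528 (-1.68). EXGT-A3 (AT2G01850) read 3531, 1257 and 3508 (1.49) and XTH33 (AT1G10550) 131, 24.0 and 101 (2.04), so members of 1 family passed 2-fold in both directions. None of 8 cellulose synthase-like genes passed 2-fold, and their median was -0.22.

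Of 29 pectin enzymes, 5 were 2-fold or more higher in RNAi group 2 and 3 in RNAi group 3, with a median of 0.29. Those higher in RNAi group 2 were ADPG1 (AT3G57510), a polygalacturonase of floral abscission and pod opening, at 159.9, 26.7 and 13.8 (2.32), and AT5G07420, AT5G48140, AT5G07430 and AT3G07820, of which the last 2 are also in the pollen list. All 5 were under 32 on the reference array. The 3 higher in RNAi group 3 were AT3G53190 (318, 1330.0 and 839, -2.06), AT1G04680 (-1.29) and AT1G67750 (-1.09), all pectate lyase-like. Those 3 had reference signals of 839, 896 and 340.

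Tubulins form the microtubules that guide cellulose synthesis and the spindle. Of 7 measured, TUB1 (AT1G75780) alone passed 2-fold, at 193, 626 and 120.5 (-1.70), with a median of -0.60. TUA6 (AT4G14960) read 3536, 6938 and 4472 (-0.97) and TUA1 (AT1G64740), known for its expression in pollen, read 806, 452 and 454 (0.83). In TUB1 it was RNAi group 3 that stood apart from both other arrays.

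Many genes of embryo maturation and desiccation had higher signals in RNAi group 2. LEA proteins are hydrophilic proteins that accumulate in drying seeds and in leaves under drought or cold, and seed storage proteins and oleosins fill the protein and oil bodies of the embryo. Members known only by a locus identifier were assigned to these families from general knowledge of the Arabidopsis annotation. Of 37 measured genes in the LEA, seed storage and cold lists together, 19 were 2-fold or more higher in RNAi group 2 and 1 was higher in RNAi group 3, with a median of 1.19. The reference array was nearer to, level with or beyond RNAi group 3 for 32 of the 37. For 11 of these genes, RNAi group 3 and the reference were both below the floor, so the floor itself made them level. Of the 19 genes higher in RNAi group 2, 11 were under 32 in RNAi group 3 and so were measured only through the group where they were high. Among the 23 genes at 32 or more in both groups, 8 were 2-fold or more higher in RNAi group 2, 1 was higher in RNAi group 3, and the median was 0.31.

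The LEA list names 52 loci. Of 36 LEA genes with a named probe set, 29 were measured and 7 lay under 32 in both groups. Of the 29, 13 were 2-fold or more higher in RNAi group 2, 1 in RNAi group 3, and the median was 0.68. AT3G15670 read 658, 4.1 and 4.5 and was at least 20.6-fold higher in RNAi group 2, with no measurable signal elsewhere. AT3G17520 (355, 18.5 and 33.5; at least 11.1-fold) and M10 (AT2G41280; 256, 3.0 and 2.6; at least 7.99-fold) had the same shape. AT3G02480 read 2814, 573 and 473 (4.92-fold), so it was present on all 3 arrays. LEA18 (AT2G35300) read 148, 1.9 and 53.8 and LEA4-5 (AT5G06760) read 528, 188 and 189 (1.49). The exception past 2-fold was the dehydrin gene AT4G38410, at 51.1, 155 and 242 (-1.60). The 3 LEA genes with the highest signals in RNAi group 2, COR15A, COR47 and AT2G23120, differed by 1.60, 0.27 and 0.07.

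The seed storage and oil body list names 28 loci and had 8 genes with a named probe set. Of these 8, 6 were measured, 5 of them in RNAi group 2 only, and 4 passed 2-fold, all higher in RNAi group 2, with a median of 2.41. PAP85 (AT3G22640), a vicilin-like storage protein, read 464, 23.2 and 17.7 (at least 14.5-fold). The cruciferin-like gene AT1G03890 read 181, 3.0 and 2.3 (at least 5.66-fold), the oleosin AT3G01570 246, 25.3 and 32.6 (at least 7.67-fold), and the cupin gene AT2G28490 159, 5.0 and 1.8 (at least 4.97-fold). Each of these rests on 1 array, since all 4 were at or near the floor on the other arrays. The oleosin OLEO3 (AT5G51210) went against them, at 59.9, 97.1 and 49.6 (-0.70), and is the only member with 32 or more in both groups. HIS1-3 (AT2G18050), a linker histone induced by drought and abscisic acid, read 607, 62.7 and 93.2 (3.27).

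The cold-regulated list names 17 loci, and 6 had a named probe set. It overlaps with the LEA list, which holds 4 of the 6 measured. COR27 (AT5G42900), a regulator of freezing tolerance and the clock, read 1724, 186 and 144, or 9.29-fold higher in RNAi group 2. COR15A (AT2G42540), which protects chloroplast membranes, read 22368, 7359 and 8821 (1.60). The dehydrin LTI30 (AT3G50970) read 7905, 2991 and 4214 (1.40). COR15B and COR47 differed by 0.26 and 0.27, so 4 of 6 passed 2-fold and all 6 had the higher signal in RNAi group 2. The clock gene GI (AT1G22770) read 1387, 824 and 665 (0.75). The labels give no time of harvest.

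**Figure D4:**
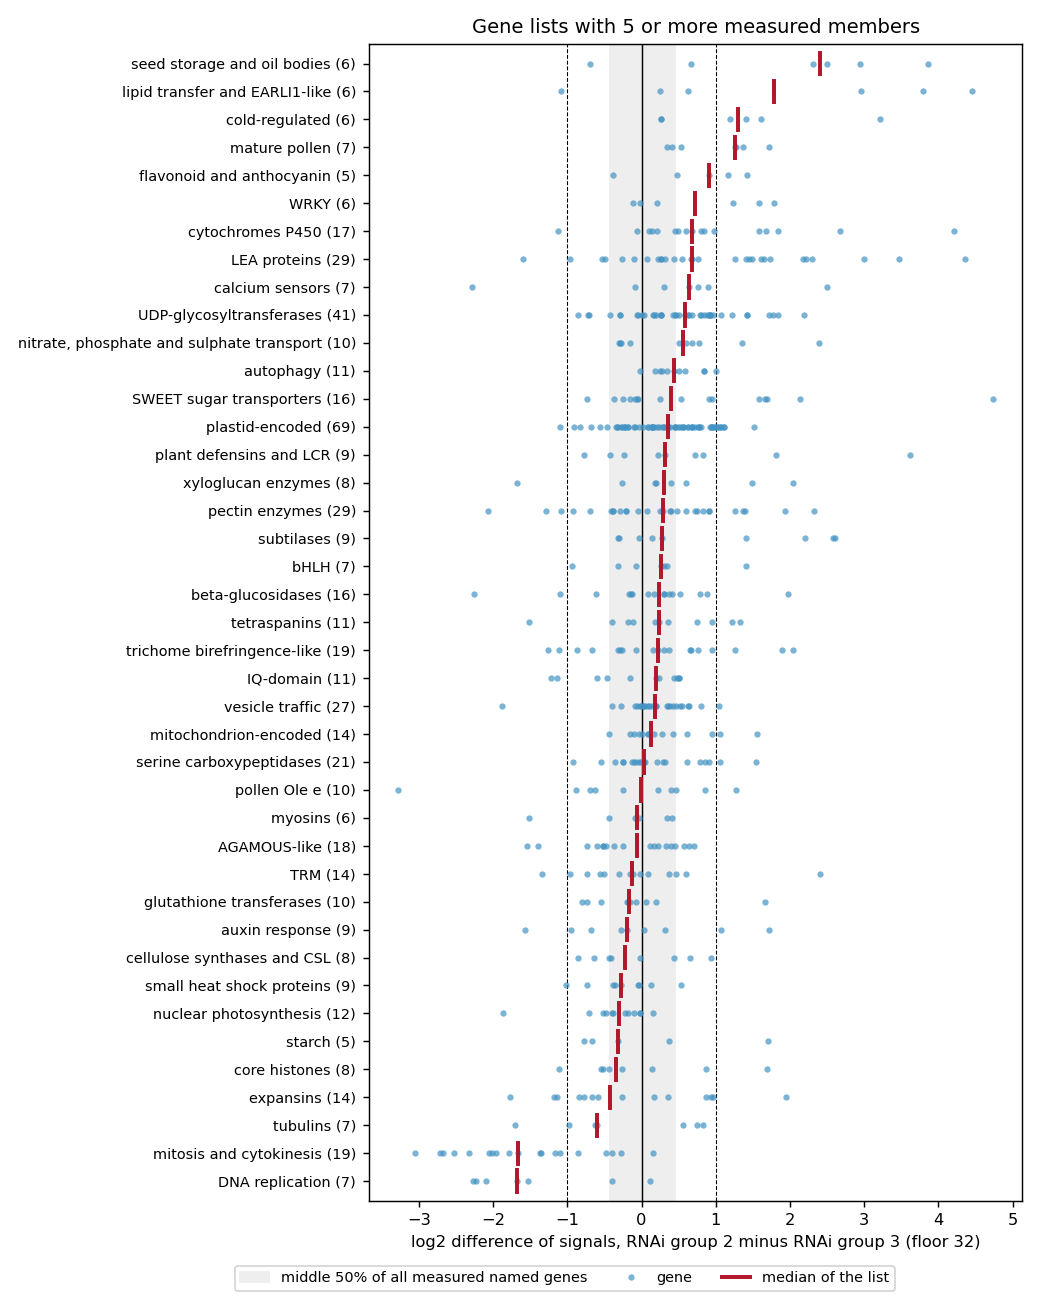
Log2 difference between RNAi group 2 and RNAi group 3 (x axis) for each measured gene (points) of the lists with 5 or more measured members (y axis, number of genes in parentheses), ordered by their median (red bar). Grey marks the middle 50% of all measured named genes and dashed lines 2-fold; the seed storage list is at the top with a median of 2.41, where 5 of 6 members were under 32 in RNAi group 3 and the 1 member measured in both groups lies at -0.70, and replication and mitosis are at the bottom with -1.68 and -1.66.

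The list of genes that mark ageing leaves names 26 loci, but only 4 genes had a named probe set. All 4 had the higher signal in RNAi group 2. SAG29 (AT5G13170; SWEET15), a sugar transporter induced in senescence, read 2628, 98.8 and 222, or 26.6-fold, the third largest difference of all named genes. WRKY6 (AT1G62300) read 298, 99.3 and 106 (1.59) and WRKY53 (AT4G23810), a regulator of the onset of leaf senescence, 360.5, 153 and 110.5 (1.24). SAG101 (AT5G14930) read 93.0, 60.8 and 124 (0.61), below 2-fold and highest on the reference array. Of 6 WRKY factors 3 passed 2-fold, all higher in RNAi group 2: the other one was WRKY47 (AT4G01720; 111, 28.5 and 71.2; at least 3.46-fold). ZAP1 and WRKY22 differed by -0.02 and -0.12.

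SWEET proteins let sugars leave cells, and 5 of 16 measured were 2-fold or more higher in RNAi group 2, 0 in RNAi group 3, with a median of 0.40. Besides SAG29 these were SWEET11 (AT3G48740; 4154, 1311 and 2689.9; 1.66) and SWEET13 (AT5G50800; 518, 173 and 214; 1.58), which take part in loading sucrose into the phloem, SWEET2 (AT3G14770; 1.69), a vacuolar member, and SWEET9 (AT2G39060; 176, 40.3 and 17.9; 2.13), which exports sucrose in nectaries. The members range from a gene of nectaries to genes of leaf veins. SWEET3 (AT5G53190) had the lowest difference, -0.73. Autophagy genes recycle cell contents, and 10 of 11 had the higher signal in RNAi group 2, but only ATG8G (AT3G60640; 320.3, 159.9 and 210.5; 1.00) reached 2-fold and the median was 0.43. Of 10 nitrate and peptide family transporters 2 passed 2-fold: AT1G68570 read 2511, 479.6 and 645 (2.39) and AT3G21670 read 5168, 2022 and 4628 (1.35). APL3 (AT4G39210), a large subunit of the enzyme that commits sugar to starch, read 998, 307 and 413 (1.70), while the other 4 starch genes stayed under 2-fold.

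Most measured UDP-glycosyltransferase, cytochrome P450 and flavonoid genes had the higher signal in RNAi group 2, while the glucosinolate list was divided. In the glucosinolate and myrosinase list AT1G54020 read 978, 2399 and 2183 (-1.30), higher in RNAi group 3, and UGT74B1 (AT1G24100), which makes the glucosinolate core, read 1502, 1332 and 2701 (0.17). Of 41 measured UDP-glycosyltransferases, which attach sugars to small molecules, 33 had the higher signal in RNAi group 2, 8 passed 2-fold there, 0 passed it in RNAi group 3, and the median was 0.59. Of the 41, 10 were under 32 in RNAi group 2 or RNAi group 3 and so were measured only through the group where they were higher. A further 10 named members were under 32 in both groups. The median was 0.63 with both signals at 32 or more and 0.26 with no filter. UGT73B5 (AT2G15480) read 166, 36.5 and 57.1 (2.19), UGT87A2 (AT2G30140) 774, 216 and 236 (1.84) and UGT72E1 (AT3G50740), a glycosyltransferase of lignin precursors, 184, 53.9 and 71.9 (1.77). UGT76C2 (AT5G05860), which glycosylates cytokinins, had the lowest difference, -0.85. The share past 2-fold in RNAi group 2 is to be read against the 8.23% of all named genes.

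Of 17 measured cytochrome P450 genes, 15 had the higher signal in RNAi group 2 and 5 passed 2-fold, against 1 in RNAi group 3. Of the 17, 6 were under 32 in RNAi group 2 or RNAi group 3 and so were measured only through the group where they were higher. A further 6 named members were under 32 in both groups. The median was 0.69, also with both signals at 32 or more, and 0.45 with no filter. CYP71B31 (AT3G53300) read 592, 3.0 and 2.1, at least 18.5-fold higher in RNAi group 2, and CYP71B23 (AT3G26210) read 205, 26.3 and 71.3 (at least 6.41-fold). CYP71B37 (AT3G26330) was the one higher in RNAi group 3, at 70.3, 154 and 234 (-1.13). Members of this subfamily resemble each other in sequence, so their probes may not be fully specific. Of 5 flavonoid genes, 2 passed 2-fold in RNAi group 2: DFR (AT5G42800), which makes the precursors of anthocyanins, read 72.1, 30.3 and 34.8, and UF3GT (AT5G54060), which decorates anthocyanins, read 85.7, 16.1 and 11.9. Both were close to the floor.

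Secreted defence and surface proteins held some of the largest differences. Among 6 lipid transfer and EARLI1-like genes, AT4G22470 read 1127, 51.2 and 82.5 (22.0-fold), AT4G12490 read 1085, 77.9 and 137 (13.9-fold) and AT4G12500 read 249, 21.9 and 30.8 (at least 7.79-fold). AT4G22490 went the other way, at 185, 393 and 179 (-1.09), so neighbours in name differed in sign; the median was 1.79. Of 9 subtilases, which are secreted proteases, 4 passed 2-fold in RNAi group 2, led by ATSBT5.2 (AT1G20160; 836, 137 and 443; 2.61) and SBT4.13 (AT5G59120; 384, 64.1 and 16.1; 2.58), with a median of 0.28. PDF2.1 (AT2G02120), a defensin, read 489.8, 39.9 and 12.7 (12.3-fold). The jasmonate-responsive defensin PDF1.2 (AT5G44420) read 370.4, 437 and 159 (-0.24), and the other 7 measured defensin-like genes had a single member past 2-fold, LCR72 (AT2G02140; at least 3.52-fold). The thaumatin-like gene ATLP-1 (AT1G18250) was higher in RNAi group 3, at 198, 1163 and 501 (-2.56).

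Calcium sensors bind calcium released on touch, cold and pathogen attack. CML41 (AT3G50770) read 792, 139.7 and 371 (2.50), the largest difference of the 7 measured, and AT1G76640 of the same family read 41.1, 199 and 72.4 (-2.28). CML38, CML42 and CML37 differed by 0.89, 0.75 and 0.64. Of 9 small heat shock proteins, which hold unfolded proteins in solution, 7 had the lower signal in RNAi group 2 and 1 of them passed 2-fold, with a median of -0.28. That one was AT5G47600 at 259, 525 and 518 (-1.02), and ATHSP22.0 (AT4G10250) read 11129, 18578 and 13069 (-0.74). These genes were mostly bright on all 3 arrays, the reference included. JMT (AT1G19640), which makes methyl jasmonate, read 679, 1221 and 3156 (-0.85), and EIN3 (AT3G20770), the main transcription factor of ethylene response, read 2390.2, 1340.5 and 1803 (0.83).

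Nuclear and plastid genes of photosynthesis had medians of opposite sign. Of 12 nuclear genes 1 passed 2-fold: LHCB4.3 (AT2G40100), an antenna protein of photosystem II, read 1018, 3722 and 3453 (-1.87). Its paralogues LHCB4.1 and LHCB4.2 differed by -0.48 and -0.38, and the Rubisco activase RCA by -0.10. The median of -0.30 is set beside -0.22 for all probe sets with a mean signal of 4096 or more.

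The chloroplast genome is read by its own polymerase and by one from the nucleus, and 69 of its genes were measured. Of these, 50 had the higher signal in RNAi group 2, 8 of them by 2-fold or more, 1 was 2-fold higher in RNAi group 3, and the median was 0.35. The complexes differed. Photosystem I (5 genes, median 0.80), photosystem II (15 genes, 0.76), ATP synthase (6 genes, 0.54), the RNA polymerase (4 genes, 0.45) and the NDH complex (10 genes, 0.42) lay above 0. Cytochrome b6f (6 genes) had a median of 0.05 and the small ribosomal subunit (8 genes) 0.13. The large ribosomal subunit (7 genes) had a median of -0.55, with 6 of 7 lower in RNAi group 2.

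psbA, which encodes the D1 protein of photosystem II, read 11997, 4198 and 6366 (1.51), the largest plastid difference. rbcL, the large subunit of Rubisco, read 2905, 1409 and 2045 (1.04). At the other end were rpl22 at 3008, 6455 and 7049 (-1.10) and psbM at 13431, 25262 and 27842 (-0.91). The measured ribosomal genes rps19, rpl22, rps3, rpl16, rpl14 and rpl36 and the polymerase gene rpoA lie close together in the gene order of the TAIR10.1 chloroplast, and all 7 had lower signals in RNAi group 2, between -1.10 and -0.23. In each of these 7 the reference array was above RNAi group 3, as it was for every other measured plastid gene except ycf3. Neighbouring plastid genes are transcribed together, so the 69 values are not independent.

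**Figure D5:**
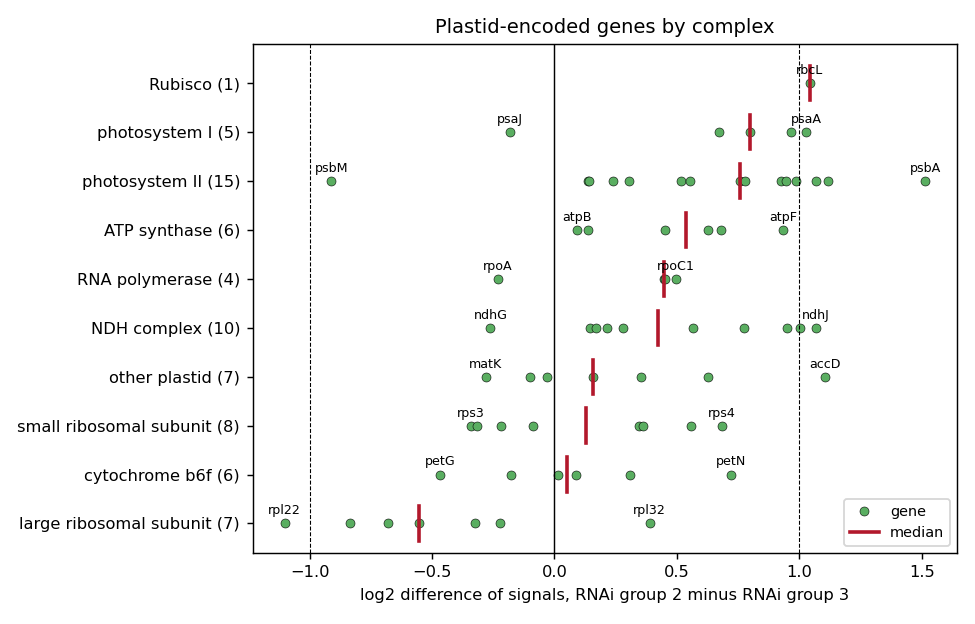
Log2 difference between RNAi group 2 and RNAi group 3 (x axis) of 69 plastid-encoded genes (points) by complex (y axis, number of genes in parentheses), with the median of each complex in red and 2-fold as dashed lines; the genes at each end are named. Both photosystems lie mostly to the right, with medians of 0.80 and 0.76, and the large ribosomal subunit mostly to the left, with -0.55.

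Of 14 measured mitochondrial genes, 2 passed 2-fold, both higher in RNAi group 2. nad4, a subunit of respiratory complex I, read 709, 241 and 335 (1.55), and cox1, of cytochrome c oxidase, read 521, 250.3 and 214 (1.06). cox2 of the same oxidase read 409, 212 and 109 (0.95), while nad6 read 139, 188 and 104 (-0.43) and the median was 0.13. Subunits of complex I therefore spread over both signs.

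The series set out to compare the 17 myosin RNAs of the plant, of which 6 have a named and measured probe set here. VIIIB (AT4G27370), a class VIII myosin, read 32, 91.9 and 54.3 (-1.52) and was the only one past 2-fold. XI-I (AT4G33200), which moves the nucleus, read 228, 233 and 177, and XIH (AT4G28710) read 80.9, 86.1 and 83.9. Their differences were -0.03 and -0.09. XIJ (AT3G58160) read 27.6, 43.2 and 30.0 (-0.43). XIC (AT1G08730; 77.6, 58.2 and 18.6) and XIE (AT1G54560; 57.0, 45.0 and 4.5), which act in pollen tubes, differed by 0.42 and 0.34 and were lowest on the reference array. Among actins, ACT11 (AT3G12110) read 252, 370.4 and 346 (-0.55) and the pollen gene ACT12 (AT3G46520) 46.3, 11.8 and 31.0 (0.53).

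Of 27 vesicle traffic genes, the cargo handling that myosins serve, 1 passed 2-fold in each direction and the median was 0.19. VPS2.2 (AT5G44560), of the ESCRT machinery that sorts membrane proteins, read 153, 564 and 331 (-1.88), and VPS9B (AT5G09320), of the family that activates Rab GTPases, read 185, 89.8 and 77.6 (1.04). The exocyst subunits SEC6, SEC10, SEC15B and SEC5A differed by 0.65, 0.36, 0.43 and 0.09. SEC15A (AT3G56640), also of the exocyst, had the opposite sign (-0.27).

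The largest differences outside these lists were in genes the tables name only by locus. AT2G05540 had the largest of all, at 2786, 82.8 and 329 (33.7-fold), followed by AT1G04560 at 994, 28.2 and 19.7 (at least 31.1-fold). AT2G37130 read 946, 41.1 and 145 (23.0-fold). AT1G80130 read 10265, 665 and 1574 (15.4-fold), which makes it one of the brightest signals of RNAi group 2. AT4G38540 and AT1G52200 had differences of 3.66 and 3.65. AT2G14650, at 3.54, was read by a probe set whose type marks possible cross-hybridisation.

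In the opposite direction, AT3G16670, of the pollen Ole e family, was 9.69-fold higher in RNAi group 3, at 35.7, 346 and 305. The family as a whole had 1 of 10 measured members past 2-fold in each direction and a median of -0.01, and the reference array was close to RNAi group 3 for AT3G16670. AT3G02120 read 29.3, 279.5 and 131 (at least 8.73-fold), AT2G36885 196, 1646 and 548 (8.39-fold) and the glutaredoxin gene AT4G15680 53.0, 428 and 133 (8.08-fold). AT3G05730 read 91.6, 675 and 575 (-2.88). Next came AT5G17160, AT3G20180, AT5G62550, AT3G51720 and AT3G22090, with differences of -2.88, -2.80, -2.61, -2.49 and -2.38. All 5 were near the floor in RNAi group 2.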

How the data were processed

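Probe set intensity values of Affymetrix probe sets were deposited by the authors as 1 table, in which GCOS and MAS5 were the tools, per the submitters' processing notes. Neither their versions nor a genome build is given in the sources used here. Per the labels, total RNA was labelled as biotinylated cRNA. The trimmed mean of each column was 500.05 or 500.06, medians were 170.25 (RNAi group 2), 159.7 (RNAi group 3) and 156.1 (reference), and 25.0% to 27.7% of signals lay under 32, so no further scaling was applied. No detection calls entered the analysis, and the number of arrays limits the precision.

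From these values, 64 control probe sets were left out, signals under 32 were set to 32, and log2 differences were taken for the 17870 probe sets at 32 or more in either group. With 1 array a group no test was run. Of 13513 probe sets with 1 gene in the platform annotation, 13436 were matched to the TAIR10.1 RefSeq table by gene ID, 23 organelle probe sets by symbol, and 54 kept their own name; 503 with several genes were not named. The brightest probe set stood for a gene. Members and lists were chosen with earlier results of these data known. Named genes are the 15 largest differences each way, all myosins, and, from each list, all members up to 6, otherwise 3 at each end. Other genes, among them AUR1, AUR3, ICU2, UBC20, KINESIN-12B, SWEET11, SWEET13, LEA4-5, rbcL and further list members, were named after their values were seen. The planned search of promoters for motifs was not run, since no promoter sequences were used here. Alternatives were median centring, quantile normalisation, floors of 16 and 100, an offset of 32, both signals at 32 or more, no filter, and the mean of a gene's probe sets. The calculation was tested on simulated data. Python 3.11.15, pandas 2.3.3, numpy 2.4.6 and matplotlib 3.10.9 were used.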

Additional observations from a re-analysis of the deposited data

How the results depend on the processing

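No paired analysis was possible because each group has 1 array, and for the same reason no array could be left out. Of 2221 values of 289 named genes under the alternatives, 2111 moved by less than 1.5-fold, 110 moved by more and 0 changed sign past 2-fold. The counts of probe sets past 2-fold ranged from 1153 with a floor of 100 to 2184 with a floor of 16 for those higher in RNAi group 2, and from 777 to 1572 for those higher in RNAi group 3. The share of the differences that favoured RNAi group 2 was 58.3%, and between 50.8% with median centring, which lowered the median of the probe sets measured in both groups by 0.08, and 60.1% with an offset of 32. List medians moved with the floor and the filter. With a floor of 16 the median was 2.57 for lipid transfer genes and 3.28 for seed storage genes. With a floor of 100 it was 2.38 and 1.08 for these lists, -0.64 for DNA replication, -0.93 for mitosis and 0.26 for flavonoid genes. With both signals at 32 or more, it was 0.26 for flavonoid genes and -0.70 for seed storage, where OLEO3 alone was left. With no filter it was 1.49 for seed storage and 0.53 for mature pollen. The other list medians stayed within 1.5-fold; those near 0, of AGAMOUS-like, IQ-domain, TRM, auxin, pollen Ole e and serine carboxypeptidase genes, took either sign. Signals near the floor limit these moved medians.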

Other observations

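Other families gave members past 2-fold in both directions. Of 16 beta-glucosidases, BGLU45 (AT1G61810), active on lignin precursors, read 252, 64 and 113 (1.98), and BGLU28 (AT2G44460) read 36.4, 173 and 111 (-2.25). Among 19 trichome birefringence-like genes, which acetylate wall polymers, 3 were higher in RNAi group 2, led by AT2G31110 at 298, 72.2 and 143 (2.05) and TBL37 (AT2G34070) at 2234, 602 and 1888 (1.89), and 2 in RNAi group 3, TBL35 (-1.26) and TBL36 (-1.11). Of 11 tetraspanins, TET2 (AT2G19580) read 229, 653 and 259 (-1.51) and TET5 and TET3 differed by 1.33 and 1.23. Of 14 genes with a TRM symbol, TRM26 (AT2G17550) read 285, 53.8 and 126 (2.40) and TRM25 (AT5G62170) read 33.2, 84.0 and 54.3 (-1.34). TRM proteins organise microtubule arrays, but TRM82 (AT1G03110, -0.51) shares only the symbol and serves tRNA methylation. The median was 0.23 for beta-glucosidases, 0.22 for trichome birefringence-like genes, 0.23 for tetraspanins and -0.13 for TRM genes.

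Some families had members past 2-fold in 1 direction only. Of 18 measured AGAMOUS-like genes, AGL24 (AT4G24540), a promoter of flowering, read 108, 316 and 184 (-1.54) and AGL87 (AT1G22590) differed by -1.40, both higher in RNAi group 3. Among the 11 IQ-domain genes of the list, IQD26 (-1.22) and IQD31 (-1.13) passed it in RNAi group 3. The list is not complete: of 14 measured genes with an IQD symbol, 3 passed it there, with a median of 0.03. Of 21 serine carboxypeptidases, scpl35 (AT5G08260; 1116, 382 and 279; 1.55) and scpl48 (1.06) passed it in RNAi group 2, and of 10 glutathione transferases GSTU16 (AT1G59700; 1116, 351 and 651; 1.67) alone. WSD1 (AT5G37300), which makes wax esters, read 459.5, 1002 and 582 (-1.12).

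Regulators of iron uptake showed no common pattern. BHLH101 (AT5G04150), which is induced when iron is short, read 96.7, 36.4 and 239.8 (1.41), while PYE (AT3G47640) read 352, 305 and 456 (0.21) and AT1G47400 read 1627, 1942 and 4449 (-0.26). All 3 were highest on the reference array. AGO7 (AT1G69440) and SE (AT2G27100), both of small RNA pathways, read 114, 60.0 and 63.5 (0.93) and 400.3, 383 and 305 (0.07).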
